A study of Mus musculus with 6 samples.

Results

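The 10 genes considered here are ones that interferon is known to switch on against viruses: Ifit1, Ifit2 and Ifit3 of the IFIT family, Ifitm1, Ifitm2 and Ifitm3 of the IFITM family, the dynamin-like GTPase genes Mx1 and Mx2, Rsad2 (viperin) and Bst2 (tetherin). They were chosen by symbol, and 10 of the 37576 genes in the count table carried these symbols. The samples came from C57BL/6 mice at embryonic day 12.5, whose whole livers were dispersed to single cells and sequenced as bulk RNA. Livers 6, 16 and 19, from males, formed the E861A group and were homozygous for the E861A allele of Adar (Adar1E861A/E861A), whose product ADAR1 cannot edit RNA. The wild-type group held liver 2, a male, and livers 15 and 17, both female. The labels name no treatment, and give no litter, so p-values measure the spread between these livers. The allele is not restricted to a cell type, and each value is that of all liver cells together, in which fewer cells of a type and less RNA per cell cannot be told apart. Each library held 35280460 to 43733715 reads in genes, and levels are given as reads per 1000000 (CPM) after scaling of the library sizes. Adar itself averaged 318 CPM in E861A and 64.3 CPM in wild type, and since the allele is a point change this level does not check the labels. Sex is partly tied to genotype here, with 1 male among the wild-type livers.

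The products of these genes are known to stop viruses at different steps. IFIT proteins bind foreign RNA and halt its translation, IFITM proteins sit in membranes and hinder the fusion of virus and cell, viperin makes a nucleotide that ends viral RNA chains, Mx proteins form rings around viral nucleoprotein, and tetherin ties budding particles to the cell surface. Interferon acts on these genes through the receptor chains IFNAR1 and IFNAR2, the kinases JAK1 and TYK2, and a transcription factor complex with STAT2 and IRF9 that binds a promoter element named the interferon-stimulated response element. The comparison of E861A with wild type asks what the loss of ADAR1 editing changes in the liver, and the labels name no virus.

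All 10 genes rose in E861A livers by the quasi-likelihood test of edgeR, with p adjusted by Benjamini-Hochberg over the 16511 genes tested, and none fell. Of all tested genes, 7.77% rose and 4.26% fell. The 10 genes were chosen with earlier results of these data known, so this contrast does not test them as a set. In each of the 10, the lowest E861A library lay above the highest wild-type library, as it did in 19.4% of all tested genes. The log2 fold changes of the 10 ranged from 0.69 to 8.88 with a median of 7.05, while the median over all tested genes was 0.04. The reads of the 10 genes together made up 52.1, 38.1 and 35.5 of every 10000 gene reads in E861A 6, 16 and 19, against 1.16, 1.02 and 1.0 in wild type 2, 15 and 17. The fold changes spread widely: those of Ifit1, Ifit3, Rsad2, Mx1 and Mx2 were above 8 on the log2 scale, those of Ifitm3 and Bst2 near 6, that of Ifit2 near 4, and those of Ifitm1 and Ifitm2 below 2. Differences between the genes' fold changes were not tested.

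**Figure D1:**
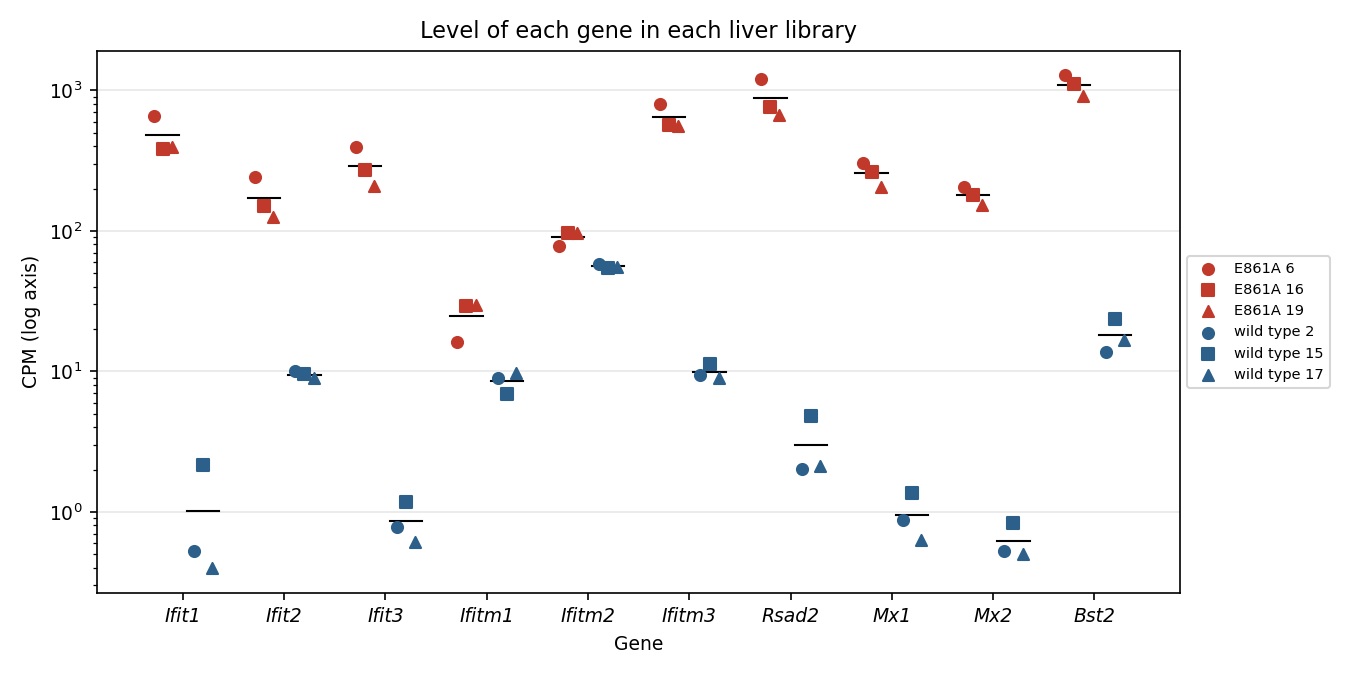
Level of each gene (CPM, log axis) in the 3 E861A and 3 wild-type libraries, with lines at the group means. No E861A library of any gene is as low as a wild-type library, and the gap is widest for Ifit1, Ifit3, Rsad2, Mx1 and Mx2 and narrowest for Ifitm2.

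Where the genes lie and what stands before their start sites is shown for the IFITM genes, whose fold changes were far apart, and for Ifit1, which had the largest fold change of the 10. A promoter window of 300 bases, 250 before and 50 after the annotated start, was found for 8 of the 10 genes in RefSeq's GRCm38.p6 table, and not for Mx1 or Mx2. The windows were searched on both strands for the 9 letters GAAANNGAA, a core of the interferon-stimulated response element. A match was present in 8.56% of all 32851 windows of that table and in 6 of the 8 genes. The capitals mark the matches in the 4 windows below, each written 5′ to 3′ on the strand of its gene.

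Ifit1, chr19:34640639-34640938, plus strand: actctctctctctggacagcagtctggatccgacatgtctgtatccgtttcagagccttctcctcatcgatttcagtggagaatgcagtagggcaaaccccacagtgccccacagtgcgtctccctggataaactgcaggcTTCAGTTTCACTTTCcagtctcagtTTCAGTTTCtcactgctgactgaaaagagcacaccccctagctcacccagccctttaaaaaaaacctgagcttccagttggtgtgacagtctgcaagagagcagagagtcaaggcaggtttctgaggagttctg

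Ifitm3, chr7:141010695-141010994, minus strand: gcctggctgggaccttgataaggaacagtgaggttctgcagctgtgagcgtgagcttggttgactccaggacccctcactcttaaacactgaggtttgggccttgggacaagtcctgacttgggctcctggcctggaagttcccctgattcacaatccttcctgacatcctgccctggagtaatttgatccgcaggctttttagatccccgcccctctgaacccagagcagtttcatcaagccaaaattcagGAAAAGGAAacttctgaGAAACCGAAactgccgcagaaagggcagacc

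Ifitm2, chr7:140955912-140956211, minus strand: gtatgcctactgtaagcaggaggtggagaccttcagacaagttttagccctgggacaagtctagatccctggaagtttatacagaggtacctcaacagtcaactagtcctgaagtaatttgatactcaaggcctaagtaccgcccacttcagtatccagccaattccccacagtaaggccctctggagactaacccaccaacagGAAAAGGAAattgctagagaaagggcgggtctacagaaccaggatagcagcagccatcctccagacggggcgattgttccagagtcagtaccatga

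Ifitm1, chr7:140967826-140968125, plus strand: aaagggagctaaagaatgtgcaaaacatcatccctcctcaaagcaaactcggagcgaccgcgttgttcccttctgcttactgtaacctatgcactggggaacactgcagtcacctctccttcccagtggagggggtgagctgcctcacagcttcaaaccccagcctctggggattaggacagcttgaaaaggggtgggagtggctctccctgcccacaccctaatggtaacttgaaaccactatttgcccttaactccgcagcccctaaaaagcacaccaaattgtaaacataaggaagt

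Ifit1 held 3 matches, whose first bases on the strand of the gene lie 109, 103 and 84 bases before the start, and the matches at 109 and 103 overlap. Ifitm3 held 2 matches just after its start and Ifitm2 held 1 match 46 bases before it, while Ifitm1 held none. Of the windows not printed, Ifit3 held 3 matches, Bst2 held 2 that overlap, Rsad2 held 1, and neither window of Ifit2 held any. A window with 2 or more matches was found in 4 of the 8 genes, and in 0.624% of all windows. When the search was kept to the 150 bases before the start, 5 of the 8 genes held a match, against 3.95% of all windows, and Ifitm3 no longer did. A second set of 9 letters, TTCNNNGAA, is the core of the gamma-activated sequence of genes that respond to interferon. It reads the same on both strands and was found in Ifitm3, Bst2 and 1 of the 2 windows of Ifit2, and in 8.30% of all windows. In Bst2 and Ifitm3 these letters overlapped a match of GAAANNGAA. Such matches describe the letters and do not show binding.

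The IFIT genes lie together on chromosome 19 of the build NCBIM37, which gives all gene positions from here on. Ifit1 (ENSMUSG00000034459, chr19:34715361-34724499, plus strand) encodes a protein that binds capped RNA lacking the methyl marks of host messages. Its level was 656, 384 and 395 CPM in E861A 6, 16 and 19, against 0.529, 2.14 and 0.397 CPM in wild type 2, 15 and 17. All E861A libraries were far above all wild-type libraries, and wild type 15 stood above both other wild-type libraries. The fit gave a log2 fold change of 8.88 (SE 0.71, adjusted p = 3.83e-04), a fitted fold of 471. That fold was the one that varied most between fits: it was 1021 without wild type 15, 899.9 with sex as a covariate and 906 in male libraries alone, where wild type 2 is the lone wild-type library and is assumed to vary like the E861A ones. The reads behind the wild-type levels of Ifit1 were 23, 82 and 15 in wild type 2, 15 and 17.

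Ifit3 (ENSMUSG00000074896, chr19:34658021-34663221, plus strand), whose product is known to bind and stabilise IFIT1 in human cells, stood at 396, 271 and 208 CPM in E861A 6, 16 and 19, against 0.782, 1.17 and 0.609 CPM in wild type 2, 15 and 17. The groups did not overlap, and E861A 6 was the highest library. Ifit3 rose with a log2 fold change of 8.41 (SE 0.39, adjusted p = 1.47e-05). Ifit2 (ENSMUSG00000045932, chr19:34625184-34650909, plus strand), whose product binds RNA rich in A and U, had 336 to 434 reads per wild-type library, more than Ifit1 or Ifit3. It stood at 241, 150.1 and 125 CPM in E861A 6, 16 and 19, against 9.98, 9.54 and 8.90 CPM in wild type 2, 15 and 17. The wild-type libraries lay close together and the E861A libraries all lay higher. Ifit2 rose with a log2 fold change of 4.18 (SE 0.27, adjusted p = 6.41e-05), a fitted fold of 18.1.

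The make-up of the family was compared between the genotypes by level per exon length. Ifit2 led the 3 genes in each wild-type library and Ifit1 or Ifit3 in each E861A library. Of the summed level of the 3 genes, Ifit2 made up 11.5%, 11.3% and 10.6% in E861A 6, 16 and 19, against 79.7%, 62.2% and 82.0% in wild type 2, 15 and 17. The mean share of Ifit2 was 11.1% ± 0.447 in E861A and 74.6% ± 10.8 in wild type (SD, n = 3 each). With the mean transcript length in place of all exons, chosen after seeing the data, these shares were 17.9% ± 0.665 in E861A and 83.4% ± 8.06 in wild type. For the shares by all exons, the two-sided exact permutation test gave p = 0.1, the smallest value that 3 libraries against 3 allow. In E861A libraries Ifit1 and Ifit3 shared most of the rest, at 46.2% ± 3.41 and 42.7% ± 3.07.

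Other genes of the IFIT family in the same stretch of chromosome 19 also rose. I830012O16Rik, which RefSeq names Ifit3b, stood at 97.8 ± 34.4 CPM in E861A and 0.337 ± 0.207 CPM in wild type, with a log2 fold change of 8.18 (SE 0.47, adjusted p = 6.03e-05). Gm14446 (RefSeq Ifit1bl1) and 2010002M12Rik (RefSeq Ifit1bl2) rose by 6.43 (SE 0.44) and 6.43 (SE 0.57) on the log2 scale. Gm14446 stood at 13.9 ± 5.91 CPM in E861A and 0.158 ± 0.0464 CPM in wild type. For 2010002M12Rik these levels were 7.54 ± 4.20 and 0.0854 ± 0.0341 CPM. The wild-type levels of these relatives are very low, which limits the precision of their folds. Ifit3 and I830012O16Rik are close copies: 51.5% of the 50-base windows of the Ifit3 transcript also occur in I830012O16Rik. How reads divide between them is therefore uncertain. For Ifit1 the shared part was 7.13%, mostly with 2010002M12Rik, and for Ifit2 it was 0%.

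The IFITM genes lie on chromosome 7, and their fold changes were far apart. Ifitm3 (ENSMUSG00000025492, chr7:148195485-148196669, minus strand), which traps viruses such as influenza in endosomes, stood at 804, 568 and 556 CPM in E861A 6, 16 and 19, against 9.40, 11.2 and 8.98 CPM in wild type 2, 15 and 17. Libraries of a genotype lay within a factor of 1.45 of each other, and the groups were far apart. Ifitm3 rose with a log2 fold change of 6.02 (SE 0.24, adjusted p = 7.77e-06), a fitted fold of 65.1. Ifitm2 (ENSMUSG00000060591, chr7:148140736-148141882, minus strand), a close relative that acts on similar viruses, was expressed in both genotypes, at 77.5, 96.6 and 96.1 CPM in E861A 6, 16 and 19, against 57.9, 54.6 and 55.3 CPM in wild type 2, 15 and 17. The lowest E861A library was 1.34 times the highest wild-type library. Ifitm2 rose with a log2 fold change of 0.69 (SE 0.14, adjusted p = 0.0178). Ifitm1 (ENSMUSG00000025491, chr7:148153120-148155724, plus strand), which acts mainly at the cell surface in human cells, stood at 16.1, 29.0 and 29.8 CPM in E861A 6, 16 and 19, against 8.90, 6.86 and 9.69 CPM in wild type 2, 15 and 17. E861A 6 was the lowest of the E861A libraries for this gene, although still above wild type. Ifitm1 rose with a log2 fold change of 1.56 (SE 0.27, adjusted p = 0.00998).

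The calls for Ifitm1 and Ifitm2 were the only ones among the 10 that were lost in other fits. With sex as a covariate 8 of the 10 passed, where 3.21% of all genes rose. There the adjusted p was 0.126 for Ifitm1 (1.49 on the log2 scale) and 0.139 for Ifitm2 (0.64), and without E861A 16 these were 0.0652 and 0.10. In male libraries alone, which hold 1 wild-type liver, they were 0.215 and 0.327. The call for Ifitm2 was also lost without E861A 19, wild type 15 or wild type 17, at adjusted p = 0.0601, 0.0728 and 0.111. Their fold changes stayed positive in all 13 other fits, from 1.35 to 1.79 for Ifitm1 and from 0.56 to 0.78 for Ifitm2. The summed levels of the 6 endothelial and the 6 granulocytic marker genes were, like Ifitm1, lowest in E861A 6 among the E861A libraries, at 319 and 340.0 CPM in E861A 6, against 456 and 604 CPM in E861A 16 and 461 and 507 CPM in E861A 19. The summed plasmacytoid dendritic markers were also lowest there, at 80.9 CPM, against 109.5 and 125 CPM in E861A 16 and 19. The erythroid sum was highest there, and the macrophage, hepatoblast and mesenchymal sums lay between those of E861A 16 and 19. In wild type, Ifitm1 was lowest in liver 15, where the endothelial and granulocytic sums were highest, at 409 and 378 CPM. The erythroid, macrophage and hepatoblast sums were highest there too, while the plasmacytoid dendritic and mesenchymal sums were lowest, at 50.3 and 512 CPM. Ifitm2, like Ifitm1, was lowest in E861A 6 and in wild type 15. The part of these cell types in the level of Ifitm1 was not tested.

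The leading IFITM gene per length was Ifitm3 in each E861A library and Ifitm2 in each wild-type library. Of the summed level of the 3 genes, Ifitm3 made up 89.9%, 82.7% and 82.4% in E861A 6, 16 and 19, against 12.5%, 15.5% and 12.4% in wild type 2, 15 and 17. The difference of the means was 71.5 percentage points (two-sided exact permutation p = 0.1, the smallest possible with 3 libraries against 3). Ifitm2 made up 12.8% ± 3.31 in E861A and 79.4% ± 0.793 in wild type (SD, n = 3 each). In E861A 6, where Ifitm3 was highest and both others were lowest, the share of Ifitm3 was highest too. The 3 genes' longest transcripts share between 6.36% and 11.1% of their 50-base windows with other annotated coding transcripts, so a part of their reads may be split with copies elsewhere.

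**Figure D2:**
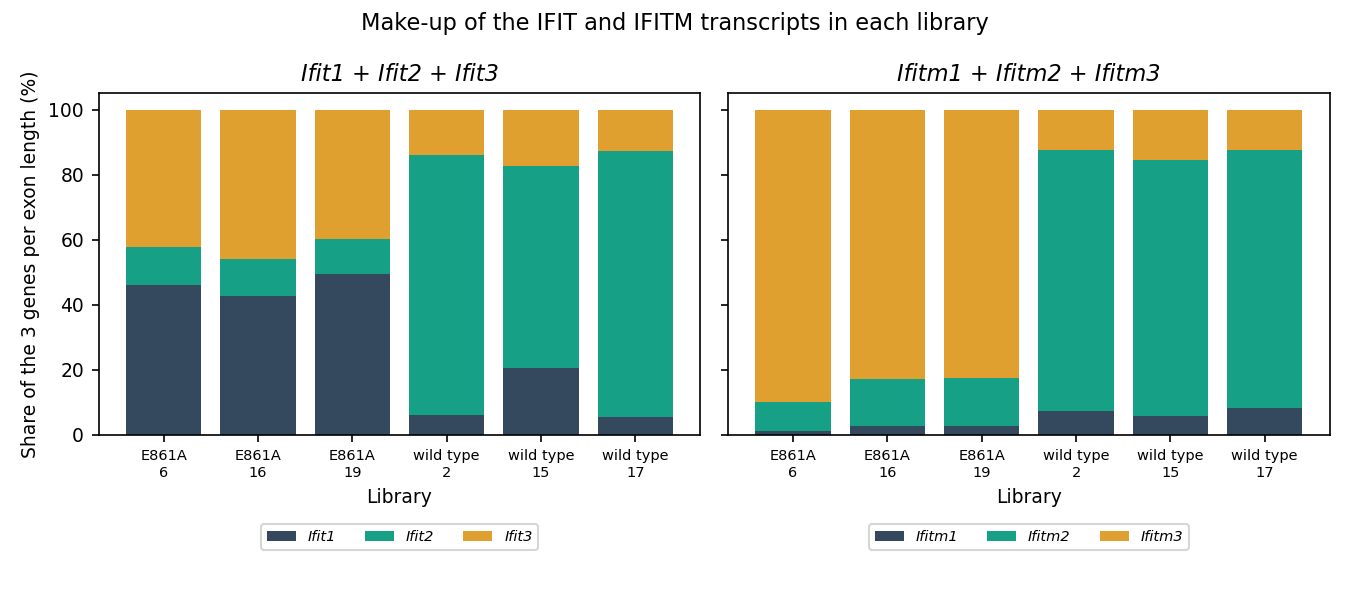
Share of each gene in the summed level per exon length of the IFIT genes (left) and of the IFITM genes (right), in percent, for each of the 6 libraries. Ifit2 and Ifitm2 lead in the wild-type libraries, while Ifit1 with Ifit3 and Ifitm3 lead in the E861A libraries.

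Among relatives of the IFITM genes, Ifitm6, which stands beside Ifitm3, stood at 4.07 ± 0.876 CPM in E861A and 1.19 ± 0.175 CPM in wild type and rose (log2 fold change 1.77, SE 0.30). Ifitm5, known from bone-forming cells, did not pass (0.63, SE 0.39), and Ifitm7 had 18 reads in all 6 libraries together and was not tested. The more distant membrane proteins of the same superfamily did not pass: Tmem90b (0.81, SE 0.54), Prrt2 (0.11, SE 0.66) and Tmem91 (-0.05, SE 0.31). In all, 14 genes listed as relatives of the 10 could be tested, counting Cmpk2, a nucleotide kinase gene that lies beside Rsad2 and is no family member. Of the 14, 5 rose, Cmpk2 among them, and 1 fell, against 7.77% and 4.26% of all tested genes. Their median log2 fold change was 0.42. The list of relatives was chosen with earlier results of these data known.

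The Mx genes lie close together on chromosome 16 in opposite orientation. Mx1 (ENSMUSG00000000386, chr16:97668642-97684514, minus strand), whose product acts in the nucleus and blocks influenza virus, stood at 305, 264 and 204 CPM in E861A 6, 16 and 19, against 0.874, 1.36 and 0.636 CPM in wild type 2, 15 and 17. Mx2 (ENSMUSG00000023341, chr16:97757690-97782506, plus strand), whose product acts in the cytoplasm, stood at 204, 179 and 154 CPM in E861A 6, 16 and 19, against 0.529, 0.834 and 0.503 CPM in wild type 2, 15 and 17. Each E861A library held 6345 reads or more for either gene, against 24 to 52 reads for Mx1 and 19 to 32 reads for Mx2 in the wild-type libraries. Mx1 rose with a log2 fold change of 8.07 (SE 0.33, adjusted p = 7.77e-06) and Mx2 with a log2 fold change of 8.17 (SE 0.26, adjusted p = 4.26e-06). By p-value Mx2 ranked 4 among all tested genes.

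The ratio of the pair was measured as well. Of the summed level of both genes per exon length, Mx1 made up 49.8%, 49.4% and 46.8% in E861A 6, 16 and 19, against 52.3%, 51.9% and 45.6% in wild type 2, 15 and 17. The means were 48.7% ± 1.65 in E861A and 49.9% ± 3.75 in wild type (SD, n = 3 each), which differed by less than the spread between wild-type libraries (two-sided exact permutation p = 0.6). With the mean transcript length in place of all exons, they were 62.3% ± 1.56 in E861A and 63.4% ± 3.52 in wild type. The near-equal split of the pair thus depends on the length used. The Mx1 and Mx2 transcripts share 159 of their 50-base windows, 4.77% of Mx1 and 6.71% of Mx2, so a small part of their reads cannot be told apart. The deposited table types both genes as protein coding, whereas RefSeq lists both as transcribed pseudogenes in the C57BL/6J genome. As background, common laboratory strains such as C57BL/6 are known to carry defective alleles of both Mx genes, so that these transcript levels do not give a level of working Mx protein.

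The dynamin relatives of Mx, which shape membranes and mitochondria, were tested beside them. Of 5, none rose and 1 fell, where 7.77% of all tested genes rose and 4.26% fell. The gene that fell was Opa1, a GTPase of the inner mitochondrial membrane (-0.61, SE 0.15, adjusted p = 0.0349). Dnm1l (-0.25, SE 0.12), Dnm3 (-0.24, SE 0.49), Dnm1 (0.21, SE 0.43) and Dnm2 (-0.03, SE 0.23) did not pass. Calls of a fall, here and below, depended on the fit. Over all genes 703 fell without a covariate and 39 with sex as a covariate, and the call of Opa1 in that second fit is not given here.

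Rsad2 (ENSMUSG00000020641, chr12:27127618-27141317, minus strand) had one of the highest read counts of the group, from 26791 to 51090 reads per E861A library. Its level was 1208, 756 and 666 CPM in E861A 6, 16 and 19, against 2.02, 4.80 and 2.12 CPM in wild type 2, 15 and 17. E861A 6 stood above the other E861A libraries and wild type 15 above the other wild-type libraries, with no overlap between genotypes. Rsad2 rose with a log2 fold change of 8.20 (SE 0.50, adjusted p = 8.04e-05). Cmpk2, which lies beside it and encodes a nucleotide kinase known to supply viperin with its substrate, was present in wild type and rose as well. It stood at 453, 318 and 279 CPM in E861A 6, 16 and 19, against 15.8, 21.7 and 22.4 CPM in wild type 2, 15 and 17, with a log2 fold change of 4.13 (SE 0.26, adjusted p = 5.39e-05).

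Bst2 (ENSMUSG00000046718, chr8:74058163-74061336, minus strand) reached the highest level of the group. It stood at 1278, 1101 and 909 CPM in E861A 6, 16 and 19, against 13.8, 23.7 and 16.7 CPM in wild type 2, 15 and 17. All E861A libraries lay at least 38.3 times above the highest wild-type library. Bst2 rose with a log2 fold change of 5.92 (SE 0.29, adjusted p = 1.70e-05). In adult mice Bst2 is known as a marker of plasmacytoid dendritic cells. Siglech, a defining marker of those cells, had 0, 0 and 2 reads in E861A 6, 16 and 19, against 9, 11 and 8 reads in wild type 2, 15 and 17, and was too low to test. Spib, with 59 reads in all, was not tested either. The 3 tested markers of that list of 5 were Irf8 (1.72, SE 0.20), Cox6a2 (4.09, SE 0.46) and Tcf4 (0.46, SE 0.25), with a summed level of 80.9 to 125 CPM in E861A, against 50.3 to 64.8 CPM in wild type.

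**Figure D3:**
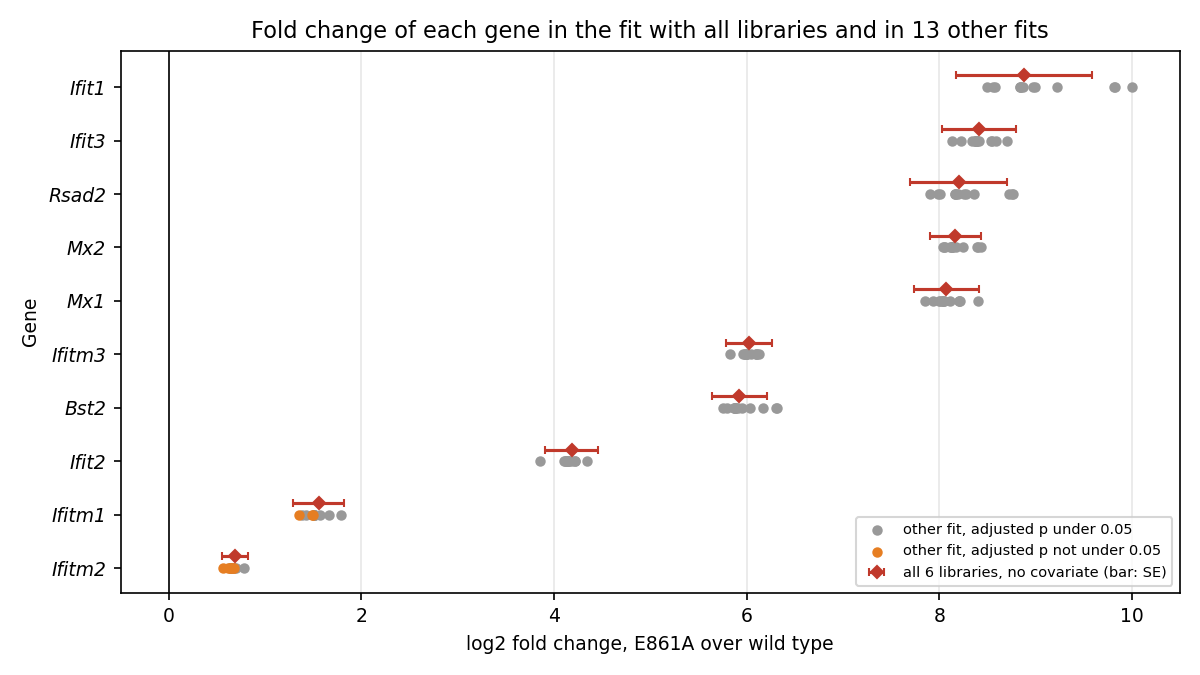
Log2 fold change of E861A over wild type for each gene: diamonds with SE bars for all 6 libraries without a covariate, dots for 13 other fits. Fold changes of all 10 genes are above 0 in every fit, and the fits with an adjusted p not under 0.05 belong to Ifitm1 and Ifitm2.

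Levels can be set side by side only per length, here as reads per kilobase of exon per 1000000 reads (RPKM). In E861A livers Bst2 led with 1435 ± 241 RPKM, followed by Ifitm3 with 947 ± 207 RPKM (SD, n = 3 each), and the libraries of these genes did not overlap with each other or with those below. Rsad2, Ifit1, Ifit3 and Ifitm2 formed the next tier, from 203 to 138 RPKM, and each overlapped its neighbour in that order. Below them Mx2, Mx1 and Ifit2 also overlapped, at 74.1, 70.7 and 43.8 RPKM, and Ifitm1 was lowest with 22.8 ± 7.01 RPKM. Compared within each library, Rsad2 lay above Ifit1, Mx2 above Mx1 and Mx1 above Ifit2 in all 3 E861A libraries. Ifit1 lay above Ifit3, and Ifit3 above Ifitm2, in 2 of the 3.

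In wild-type livers the order was another. Ifitm2 led with 85.9 ± 2.71 RPKM. Bst2 with 23.6, Ifitm3 with 14.6, Ifitm1 with 7.75 and Ifit2 with 2.41 RPKM followed, with no overlap between neighbours. Rsad2, Ifit3, Ifit1, Mx1 and Mx2 all averaged below 1 RPKM, from 0.688 to 0.257, and each overlapped its neighbour. Within the 3 wild-type libraries, Rsad2 lay above Ifit3 in 3, Ifit3 above Ifit1 in 2, Ifit1 above Mx1 in 1 and Mx1 above Mx2 in 2. The 5 genes with the lowest wild-type levels were also the 5 with the largest fold changes. The wild-type level is the divisor of the fold change, so these orders are linked. With the mean length of the annotated transcripts in place of all exons, the ranks from 7 to 9 in E861A became Mx1, Ifit2 and Mx2.

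The order of the libraries within a genotype was compared across the 10 genes. E861A 6 was the highest E861A library for 8 of them and the lowest for Ifitm1 and Ifitm2. Of all 1283 genes that rose, E861A 6 was highest among E861A libraries in 38.7%. E861A 19 was the lowest for 7 of the 10, and how often it was lowest among all genes that rose was not counted. Wild type 15 was the highest wild-type library for 7 of the 10, namely Ifit1, Ifit3, Ifitm3, Rsad2, Mx1, Mx2 and Bst2, and it was highest for 46.9% of all genes that rose. The range within wild type was widest for Ifit1, where wild type 15 was 5.38 times wild type 17, and narrowest for Ifitm2, at 1.06 times.

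The genes whose level followed the mean of the 10 most closely over the 6 libraries were Ddx58, Trim21, Xaf1, Slfn2 and Tdrd7, with a Pearson r from 0.9996 to 0.9998. The difference between genotypes sets most of this likeness, and 211 genes outside the group had an r above 0.99. Within the group, r with the mean was above 0.99 for 8 genes, and it was 0.89 for Ifitm1 and 0.94 for Ifitm2.

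The receptor and signalling genes through which interferon acts were considered next. Their list was chosen with earlier results of these data known, so its count does not test the list. Of 12 genes, 6 rose and none fell, against 7.77% and 4.26% of all tested genes, with a median log2 fold change of 1.35. Those that rose carry or control the signal inside the cell, but so do Jak1, Tyk2, Irf3 and Ptpn6, which did not pass. Of the complex that binds the response element, Stat2 (3.46, SE 0.17) and Irf9 (2.12, SE 0.20) rose, as did the transcription factors Irf1 (2.96, SE 0.18) and Irf7 (6.68, SE 0.40). The feedback inhibitors Usp18 (7.10, SE 0.39) and Socs1 (3.17, SE 0.52) rose too. Irf7 stood at 749, 776 and 663 CPM in E861A 6, 16 and 19, against 5.47, 11.2 and 4.63 CPM in wild type 2, 15 and 17, and no library of the groups overlapped. The receptor genes Ifnar1 (0.02, SE 0.15) and Ifnar2 (0.48, SE 0.16), the kinases Jak1 (-0.13, SE 0.15) and Tyk2 (0.18, SE 0.22), Irf3, which is activated without new transcription (0.13, SE 0.16), and the phosphatase Ptpn6 (0.59, SE 0.29) did not pass.

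Other genes known to restrict viruses were counted in the same way. This list, too, was chosen with earlier results of these data known, so its count does not test it. Of 17 genes, 12 rose and 1 fell, against the same background, with a median log2 fold change of 1.78. With the smallest p were Tdrd7 (3.42, SE 0.17), the antibody receptor and ubiquitin ligase Trim21 (3.50, SE 0.18), Trim30a (5.36, SE 0.27), the exonuclease Isg20 (5.37, SE 0.29) and the double-stranded RNA-dependent kinase Eif2ak2 (2.29, SE 0.17). The gene that fell was March8, a membrane ubiquitin ligase that removes viral envelope proteins (-1.27, SE 0.20), at 109.6, 105 and 102 CPM in E861A 6, 16 and 19, against 197, 329.7 and 234 CPM in wild type 2, 15 and 17. Those that did not pass were Apobec3, Zc3hav1, Serinc5 and Serinc3.

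**Figure D4:**
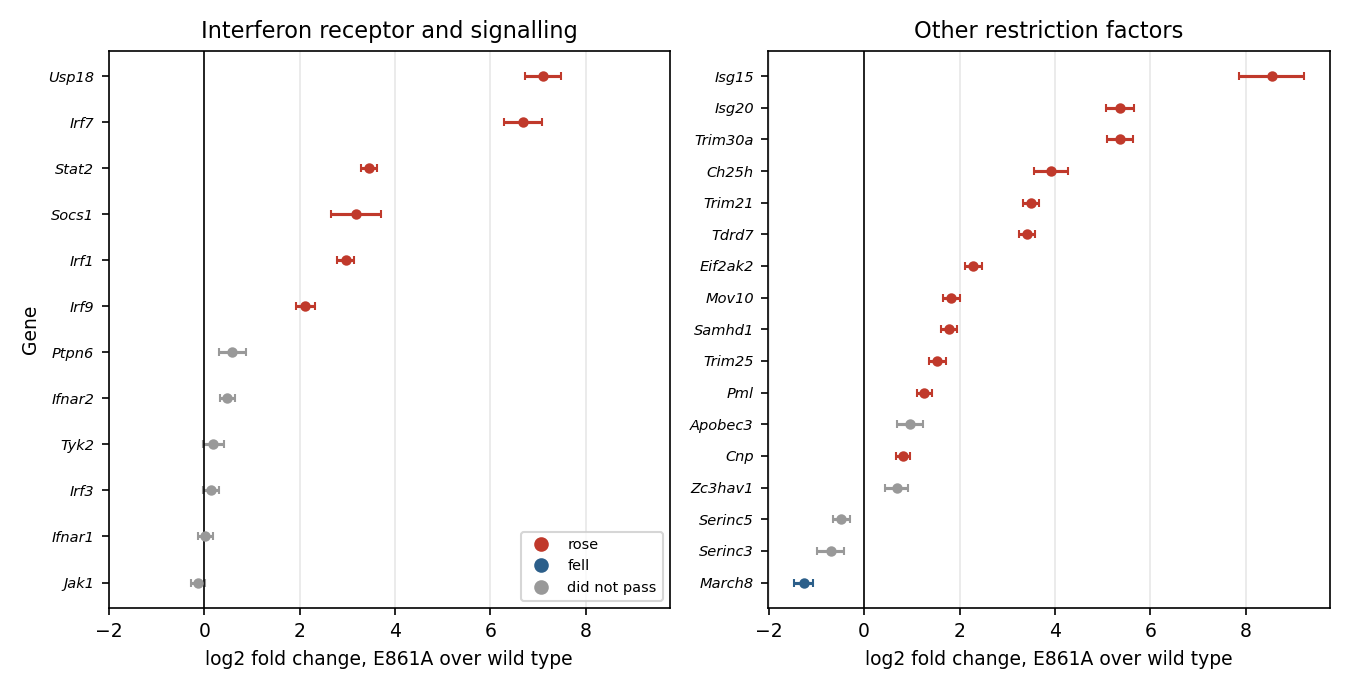
Log2 fold change of E861A over wild type with SE bars for 12 interferon receptor and signalling genes (left) and 17 other restriction factor genes (right). Ifnar1, Jak1 and Tyk2 lie near 0, while Usp18 and Irf7 lie near 7, and March8 is the gene that fell.

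The 10 genes occupy 5 loci, and the nearest tested coding genes on each side of each locus were compared with them, at whatever distance. Between start positions, the distance to the nearest of the 10 genes ran from 5.87 kb for Ifitm5 to 1995 kb for Dcdc2c. Of the neighbours that rose, Id2 and Igsf5 lie 1349 and 1085 kb away, so not all are local. Of 30 neighbours, 3 on each side of each locus, 10 rose and none fell, against 7.77% and 4.26% of all tested genes. Among those that rose, Cmpk2 and Ifitm6 were also counted as relatives above, and Ch25h as another restriction factor. The count of 10 depended on the libraries and on sex: it was 5 without E861A 16, 5 without wild type 17, 5 with sex as a covariate and 3 in male libraries alone. Of all genes, 3.02%, 3.23%, 3.21% and 1.68% rose in these fits, in the same order. Around the IFIT genes, Ch25h, which makes an antiviral oxysterol, rose (3.91, SE 0.35), while Lipa (0.21, SE 0.13), Fas (1.17, SE 0.48), Slc16a12 (-0.37, SE 0.15), Pank1 (-0.22, SE 0.14) and Kif20b (-0.37, SE 0.13) did not pass. Around the IFITM genes, Athl1 (0.79, SE 0.13) and Ifitm6 rose, while Nlrp6 (-0.03, SE 0.22), Ifitm5, B4galnt4 (0.19, SE 0.64) and Pkp3 (1.06, SE 0.40) did not pass.

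Beside Bst2 the genes on its upstream side all rose. They were Fam125a (1.50, SE 0.15), whose start position in the table is 8.67 kb from that of Bst2, Tmem221 (2.69, SE 0.33) and Nxnl1 (2.23, SE 0.32). Fam125a stood at 51.2, 49.3 and 42.9 CPM in E861A 6, 16 and 19, against 14.4, 18.5 and 18.0 CPM in wild type 2, 15 and 17. Of the genes on the other side, Plvap, a gene of endothelial diaphragms, rose (0.79, SE 0.14), and Gtpbp3 (0.16, SE 0.15) and Ano8 (-0.17, SE 0.35) did not pass. Between Mx1 and Mx2 lies Fam3b, which rose, with 38 reads in E861A and 2 in wild type, a ratio of 18.4 with a 95% counting interval from 4.76 to 158. Outside the pair, Igsf5 rose (1.94, SE 0.44), and Itgb2l (0.00, SE 0.29), Bace2 (0.38, SE 0.29), Tmprss2 (0.75, SE 0.30), Ripk4 (0.76, SE 0.26) and Prdm15 (-0.21, SE 0.20) did not pass. Around Rsad2, Cmpk2 and Id2 (0.92, SE 0.24) rose, and Rnf144a (0.03, SE 0.46), Kidins220 (-0.28, SE 0.19), Sox11 (-0.05, SE 0.62) and Dcdc2c (-0.08, SE 0.37) did not pass.

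**Figure D5:**
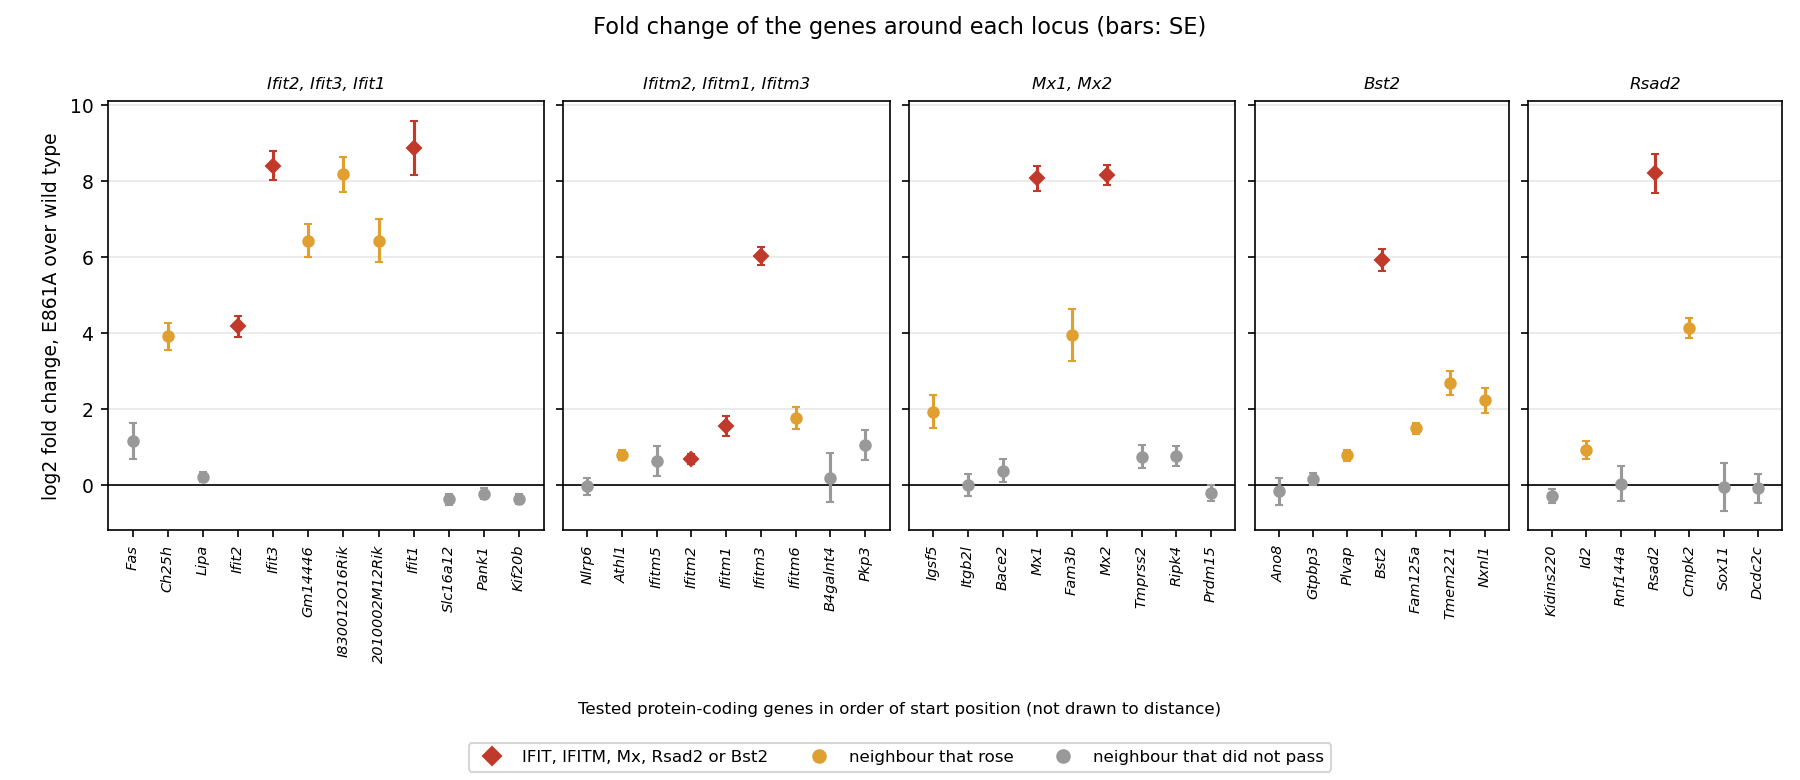
Log2 fold change of E861A over wild type with SE bars for the genes at each of the 5 loci, in order of start position. The IFIT relatives between Ifit3 and Ifit1 lie above 6, Cmpk2 lies near 4, and most other neighbours lie between -1 and 3.

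The study also measured RNA editing, and the sites in or within 5 kb of the 10 genes were counted. Of 6012 sites in the deposited table, 1 lay there, in an intron of Mx1 at chr16:97681526 in NCBIM37, and none lay in or near the other 9 genes. Wild-type libraries held few reads of several of these genes, such as 15 to 82 for Ifit1 and 19 to 32 for Mx2, against 2088 to 2519 for Ifitm2. For genes with so few wild-type reads, the lack of a listed site does not show a lack of editing. The change read there is A-to-G on the strand of Mx1. Reads with the change were 2 of 299 in E861A, 0.669% with a 95% Wilson interval from 0.184% to 2.41%, against 0 of 2 in wild type. The 2 reads in E861A are under the floor of 3 reads used here and are not taken as editing. With 2 covering reads the wild-type level could not be compared. The intron position was covered by 47, 105 and 147 reads in E861A 6, 16 and 19, against 1, 1 and 0 reads in wild type 2, 15 and 17.

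Marker genes of the cell types of fetal liver were measured in the same libraries. The labelled tissue was checked against its markers, with Alb at 7569.5 CPM in E861A and 6386 CPM in wild type, and Klf1 at 175 and 356 CPM. Summed over 6 erythroid markers the level was 3119 to 3481 CPM in E861A, against 6013 to 12548 CPM in wild type, and Slc4a1, Klf1 and Tfrc fell. Over 6 hepatoblast markers it was 19481 to 28423 CPM in E861A, against 15858 to 20080.3 CPM in wild type, and Hnf4a rose. Over 8 macrophage markers it was 188 to 223 CPM in E861A, against 207 to 247 CPM in wild type, with Cd68 higher and Emr1 lower. Over 6 endothelial markers it was 319 to 461 CPM in E861A, against 315 to 409 CPM in wild type, with Pecam1 higher and Stab2 lower. Over 6 granulocytic markers it was 340.0 to 604 CPM in E861A, against 208 to 378 CPM in wild type, with Prtn3 and Ctsg higher and S100a8 (-0.53, SE 0.14) and S100a9 (-0.37, SE 0.17) not passing. Over 6 mesenchymal markers it was 665 to 1685 CPM in E861A, against 512 to 1875 CPM in wild type, and none passed. The part of these cell types in the levels of the 10 genes was not tested.

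In the authors' deposited table, 8.44% of 14484 genes were higher in E861A at an adjusted p under 0.05, among them all 10 genes. The log2 fold changes of the authors' deposited table, with the sign turned to E861A over wild type, lay within 0.0857 of those above for 9 genes. For Ifit1 the authors' deposited table gave 9.23.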

How the data were processed

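RNA of 6 fetal livers was sequenced. Per the submitters' processing notes the authors used limma, edgeR, Cufflinks, HTSeq, BWA, TopHat2 2.0.8, Trimmomatic 0.30, SAMtools 0.1.19 and Bowtie2 2.1.0.0, with the builds mm9 and NCBIM37, whose roles are not given in the sources used here. The authors deposited read counts per gene, not normalized. They also deposited a table of their own comparison, with log2 fold changes of wild type over mutant, p-values and scores, and an editing table with covering read counts, edited fractions, p-values and score differences per site. The authors' p-values and scores of editing were not used, nor were their normalised values.

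The 10 genes and the other lists were chosen with earlier results of these data known. Counts were tested in edgeR 4.0.16 (TMM scaling, filterByExpr, robust quasi-likelihood F test) under R 4.3.3, E861A over wild type, with Benjamini-Hochberg adjustment over all 16511 tested genes and a call under 0.05. All 10 genes passed the filter on low counts, which asks for enough reads in as many libraries as a genotype has and can thus keep a gene through its high group alone. CPM were scaled by the TMM-adjusted library sizes, and RPKM also by the length of all exons. Of 37576 genes in the table, 37205 were found in GENCODE M1. Shares were compared by a two-sided exact permutation test over libraries (SciPy 1.17.1). Shared sequence was counted as 50-base windows of the longest transcript found in transcripts of other genes. Strandedness of the counting is not given in the sources used here, and no exon of the 10 genes overlapped one of another gene. Edited reads were recovered as fraction times coverage and needed 10 reads per genotype for a test. Intervals cover counting error only. Promoter windows came from RefSeq.

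Genes were named by a rule: the 10 genes, all tested relatives, neighbours and signalling genes, the 5 other restriction factors with the smallest p and any that fell, the marker with the smallest p per list, and the 5 genes most like the mean of the centred log2(CPM + 0.5) profiles. Further markers and restriction factors were named after their values were seen. Alternatives were DESeq2 1.42.0, its size factors, limma-voom 3.58.1, 2 other filters, sex as a covariate, male livers alone, each library left out, and other gene lengths. A gene of the signalling list and a gene of the restriction factor list are not reported here, and the counts and medians of those lists leave them out.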

Additional observations from a re-analysis of the deposited data

How the results depend on the processing

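No paired analysis was possible because liver numbers differ between E861A and wild type and no label gives a litter. Against 10 neighbours of the 5 loci that rose, 5 did with sex as a covariate and 3 in male livers alone, and leaving out 1 library gave 5 to 10. The number of the 10 genes that rose was 8 to 10 over the 13 other fits, and none fell in any of them. The cause of the lost calls of Ifitm1 and Ifitm2 was not tested. Over all genes, against 1283 that rose and 703 that fell, 530 and 39 did so with sex as a covariate, 301 and 8 in male livers alone, 1499 and 1538 with DESeq2, 1173 and 882 with its size factors, and 1184 and 1160 with the filter at 1 CPM. Leaving out 1 library gave 515 to 1737 that rose and 95 to 1502 that fell. The difference in the share of Ifitm3 was 69.1 to 72.8 percentage points without 1 library. With the mean transcript length, levels in E861A became 76.1 RPKM for Ifit2, 34.3 for Ifitm1, 278.6 for Rsad2 and 123 for Mx1. Wild-type levels of Ifit1, Ifit3, Mx1, Mx2 and Rsad2 rest on few reads, which limits the precision of their folds.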
